A study of Mus musculus with 2 samples.

Results

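The MYB family motifs are the 3 sequence patterns filed under the names MYBL1, MYBL2 and Myb (MYB in the files) among the 579 transcription factor motifs that were counted in single cells of mouse retina. They were taken by name, and the set was chosen with it known from these data that MYBL1 counts differ between cell clusters, so the MYBL1 values are given below as a description with no test. The cells came from wild-type (WT) mouse retina of the embryonic stage E14.5, which was dissociated and profiled for open chromatin with the droplet assay of 10x Genomics (single-cell ATAC-seq). There are 2 replicate libraries of this 1 group and no treatment, mutant or other age, and nothing in the labels ties a replicate to an animal or a litter of its own. The SDs below can thus speak only for how far 2 libraries differ. The main p-values come from a fit that sets aside the overall difference between the libraries. They speak only for how alike the differences between clusters are in the 2 libraries. Either spread may be technical.

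MYB proteins bind DNA through repeated helix-turn-helix domains that recognise a short core. The family has 3 members in mammals. Myb (c-Myb) is best known from blood progenitors, MYBL1 (A-MYB) from male germ cells, and MYBL2 (B-MYB) is found in most dividing cells, where it joins the MuvB core complex and activates genes of late S phase and mitosis. E2F factors act earlier, at entry into S phase, and E2F activity switches on the Mybl2 gene itself. NFY binds the CCAAT box that many mitotic promoters carry. At this age the retina holds dividing progenitors and the first postmitotic neurons, among them ganglion cells, the projection neurons of the eye, whose POU class 4 factors are their textbook regulators.

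A motif count is not binding and not expression. In matrices of this kind each transposase cut inside an accessible peak is added to every motif found in that peak, so the count says how open the peaks holding a pattern are. Any factor with a like pattern shares those counts, and the names of the 3 motifs say nothing of which family member occupies the DNA. The files name the motif patterns without their letters, so the patterns themselves are not printed. No 2 of the 3 had the same counts, and none shared its counts in every kept cell with any other motif.

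The promoters of the members' own genes show what matches to such cores look like. In the mouse assembly GRCm38.p6, on which the build mm10 rests, RefSeq places Mybl1 at chr1:9667407-9700439, Mybl2 at chr2:163054327-163084688 and Myb at chr10:21124930-21160984. The promoter table of RefSeq had entries for Mybl2 and Myb, each running from 250 bases before to 50 bases after a transcription start. Capitals mark 2 patterns searched on both strands, the MYB core AACNG (CNGTT on the other strand) and the E2F core GGCGGGA. The Mybl2 window is chr2:163054385-163054684 on the plus strand, and the Myb window is chr10:21160935-21161234, printed from the minus strand.
Mybl2: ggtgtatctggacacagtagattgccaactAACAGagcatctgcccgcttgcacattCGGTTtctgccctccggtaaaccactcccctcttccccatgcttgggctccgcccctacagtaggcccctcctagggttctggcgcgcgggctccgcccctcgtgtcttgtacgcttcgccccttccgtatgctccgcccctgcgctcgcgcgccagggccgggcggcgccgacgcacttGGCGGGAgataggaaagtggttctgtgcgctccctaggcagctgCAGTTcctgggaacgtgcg
Myb: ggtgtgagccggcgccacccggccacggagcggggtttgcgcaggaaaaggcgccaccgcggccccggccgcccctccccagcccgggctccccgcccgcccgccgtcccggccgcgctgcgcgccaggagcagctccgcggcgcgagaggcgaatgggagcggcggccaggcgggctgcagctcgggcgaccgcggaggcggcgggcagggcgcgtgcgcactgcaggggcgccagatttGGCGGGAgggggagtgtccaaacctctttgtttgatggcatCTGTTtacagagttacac
The Mybl2 window held 3 MYB cores and 1 E2F core, and the Myb window 1 of each. The short MYB core is common: 80.3% of 32851 promoter windows held at least 1. A pair of cores facing each other without a gap, CNGTTAACNG, occurred in 68 of them, or 0.207%. The E2F core occurred in 11.3%. These matches describe letters only, and the accessibility of the 2 promoters was not measured here.

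Of the deposited barcodes, 890 of 2422 in replicate 1 and 1051 of 3033 in replicate 2 were kept as cells, holding 98.3% and 97.3% of all counts. A kept cell had at least 300000 motif counts and more than the same barcode had in the other library. The median cell had 3519151 and 3523871 counts. Of the kept barcodes, 872 in replicate 1 and 925 in replicate 2 also occurred in the other library, where the copy held a median of 1.77% and 0.789% of the kept total. Leaving all of these barcodes out would keep 18 and 126 cells, too few to cluster.

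The levels of the 3 motifs differed widely. MYBL1 was the rarest of the 579 motifs in both libraries, with 1.97 counts per 1000000 motif counts (CPM) in replicate 1 (exact 95% Poisson interval 1.92 to 2.02) and 2.11 in replicate 2 (2.07 to 2.16). That came to a mean of 7.33 and 7.70 counts per cell, with single cells ranging from 0 to 75 and from 0 to 56. MYBL2 had 13.1 and 12.3 CPM, or 48.8 and 44.7 per cell, and stood at rank 573 of 579 in both. Myb had 979 and 988 CPM, or 3648 and 3595 per cell, at ranks 165 and 162. No kept cell was without a Myb count, while 2 and 8 cells had no MYBL2 count and 137 and 171 cells no MYBL1 count. These intervals cover counting error only, and cuts in the same fragment are not independent of each other.

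The E2F motifs spread as widely. E2F1, with 11.3 and 12.3 CPM, was at a level near that of MYBL2, whereas E2F6 reached 3061 and 3040. NFYA, a CCAAT motif, stood at 888 and 883, close to Myb.

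MYBL1 counts came overwhelmingly in even numbers. Among cells with at least 1 MYBL1 count, the count was even in 88.6% of cells of replicate 1 and 87.8% of replicate 2. A Poisson model with each cell's total as exposure gave 48.8% and 48.3%. No other motif of the 579 had a higher even share in either library. In replicate 1, 129 cells held 2 counts and 121 held 4, against 7 with 1 count and 16 with 3. In replicate 2, 160 cells held 2 and 125 held 4, against 9 with 1 and 11 with 3. In this assay a sequenced fragment has a cut at each of its ends. MYBL2 was even in 66.1% and 67.3% of cells, E2F1 in 74.9% and 70.5%, and ZBED1, the next rarest motif after MYBL1, in 86.1% and 85.9%. The median motif was even in 50.6% and 50.4%, and Myb in 51.2% and 47.4%. Intervals on single counts are too narrow for counts that come in pairs. Measures are therefore given below also with counts taken in pairs, an alternative added after the counts were seen.

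**Figure D1:**
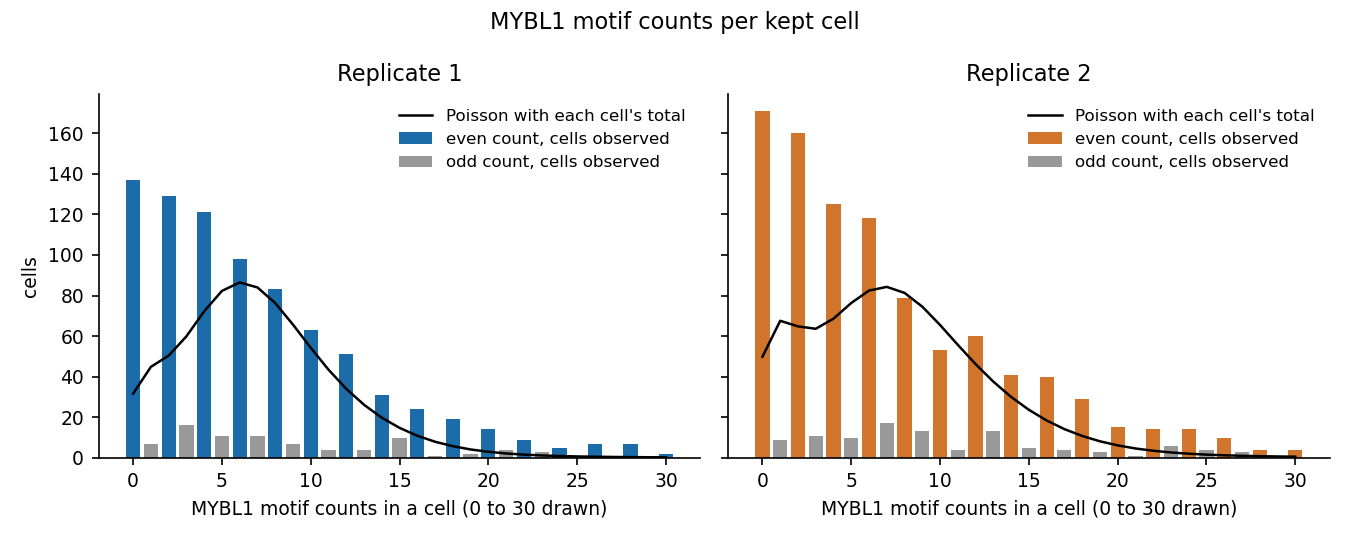
Number of kept cells (vertical axis) by MYBL1 motif counts in the cell (horizontal axis, 0 to 30), for replicate 1 and replicate 2. Coloured bars are even counts, grey bars odd counts, and the line is the number of cells a Poisson model with each cell's total would give. Even counts stand far above odd ones, and 137 and 171 cells had no count.

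By its excess coefficient of variation (CV) MYBL1 was also the most uneven motif between cells. This CV, the spread beyond Poisson counting noise at equal exposure, was 51.2% and 52.3%, at rank 1 of 579 in both libraries. The median motif had 4.55% and 4.56%. MYBL2 had 17.9% and 18.4%, at rank 7 in both libraries, and Myb had 3.19% and 2.91%, at ranks 445 and 465. E2F1, at nearly the level of MYBL2, had 17.1% and 22.6%. Taken in pairs, the CV of MYBL1 was 39.8% and 41.9% and that of MYBL2 13.0% in both libraries. Against the variance of a Poisson model, MYBL1 counts were 3.20 and 3.36 times as variable, and in pairs 1.60 and 1.70 times. MYBL2 counts were 2.91 and 2.89 times as variable, and in pairs 1.46 and 1.44 times. For E2F1 the values in pairs were 1.28 and 1.78. This ratio to the Poisson variance was higher for Myb, at 5.22 and 4.51 (in pairs 2.61 and 2.26), and for E2F6, at 14.8 and 15.3. MYBL1 was thus first by its CV and not by this ratio. Pairing lowers the ratio by arithmetic alone, also for Myb, even in only 51.2% and 47.4% of cells. The ratios in pairs are therefore no second measure of spread.

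Cells without any MYBL1 count were more frequent than either model gave. They made up 15.4% of replicate 1 and 16.3% of replicate 2. The Poisson model gave 3.55% and 4.74%, and the model in pairs 9.24% and 11.0%.

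To see which cells these were, cells were clustered on the 568 motifs that are neither MYB nor E2F motifs, so that no member took part in forming the groups. The peaks of the members still enter through the other motifs they hold. The clustering gave 6 clusters. Cluster 3, with 145 and 161 cells, was led by POU4F1, POU4F3 and POU4F2 and is called ganglion cell-like. Cluster 5, with 119 and 133 cells, was led by NEUROD1, NEUROD2 and Neurog1 and is called neurogenic basic helix-loop-helix (bHLH)-like. The other 4 stayed unnamed. Cluster 1 was led by ZBTB7B and ZBTB7C, cluster 2 by Sox1, SOX8 and SOX4, cluster 4 by NR1H4 and Hnf4a, and cluster 6 by Crx and Dmbx1. By the edgeR test described below, cluster 6 also had 10 of the 12 neurogenic bHLH motifs higher and 1 lower. Their mean log2 fold was 0.098. Cluster 5 had 11 of them higher and none lower, at 0.11. Over all motifs 47.5% were higher in cluster 6 and 27.3% in cluster 5. Of 8 progenitor SOX motifs cluster 2 had 8 higher, cluster 4 had 6 and cluster 1 had 5, with 0, 0 and 2 lower. Of 7 TEAD and NFI motifs these clusters had, in that order, 6, 5 and 4 higher, with 1, 0 and 1 lower. Of 8 progenitor homeodomain motifs they had 7, 3 and 2 higher, with 0, 1 and 1 lower. Over all motifs 41.3%, 31.4% and 20.2% were higher in these clusters. Cluster 4 held the deepest cells, with a median total 1.27 and 1.28 times that of the library, and cluster 6 the shallowest, at 0.763 and 0.856 times. Among lists for other cell types, microglial motifs had a mean log2 fold between −0.061 and 0.055 over the clusters. Endothelial and erythroid motifs lay between −0.031 and 0.041. Of these 6, 4 were higher and 0 lower in the ganglion cell-like cluster, with a mean of 0.027. In cluster 6, 3 of them were higher and 1 lower. Of the 6 microglial motifs 4 were higher and 1 lower in cluster 6, and 2 higher and 2 lower in the ganglion cell-like cluster. In the ganglion cell-like cluster all 7 horizontal and amacrine motifs, among them ONECUT1, were higher too, with a mean log2 fold of 0.077. Of the 4 pigment epithelium motifs 3 were higher there, at 0.022. Over all 579 motifs 35.2% were higher in that cluster. In cluster 6 all 4 pigment epithelium motifs were higher, with a mean log2 fold of 0.10, and 6 of the 7 horizontal and amacrine motifs, at 0.071. There 47.5% of all motifs were higher. The part of these lists in the values of clusters 3 and 6 was not tested.

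MYBL1 was lowest in the ganglion cell-like cluster and highest in cluster 4, in both libraries. It had 0.883 and 0.907 CPM in the ganglion cell-like cluster, against 2.08 and 2.19 in cluster 1, 2.12 and 2.41 in cluster 2, 2.71 and 2.90 in cluster 4, 1.96 and 1.90 in cluster 5, and 1.41 and 1.18 in cluster 6. Per cell that was 2.95 and 2.94 counts in the ganglion cell-like cluster and 11.9 and 12.1 in cluster 4. No MYBL1 count was found in 30.3% and 31.1% of ganglion cell-like cells and in 4.39% and 6.37% of cluster 4 cells. The libraries put the clusters in the order 4, 2, 1, 5, 6 and 3 alike. Clusters 1 and 2 lay within each other's intervals in replicate 1, and so did clusters 1 and 5 there when the counts were taken in pairs (1.95 to 2.21 and 1.79 to 2.14).

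Against the mean of the other clusters, the log2 fold of MYBL1 in the ganglion cell-like cluster was −1.17 (SE 0.092), and the values of the 2 libraries taken apart were −1.19 and −1.16. With coarser clusters, at resolution 0.3, it was −0.53. Among all 579 motifs the fold of −1.17 was the farthest from 0. Cluster 4 had 0.79, cluster 2 had 0.44, cluster 1 had 0.32, cluster 5 had 0.15 and cluster 6 had −0.55. Since every cluster is set against the mean of the rest, the low level in cluster 3 raises the folds of all others. In clusters 2 and 4 MYBL1 had the highest fold of all motifs, and in clusters 3 and 6 the lowest. MYBL1 was also the motif of lowest level, and the part of that in these ranks was not tested.

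**Figure D2:**
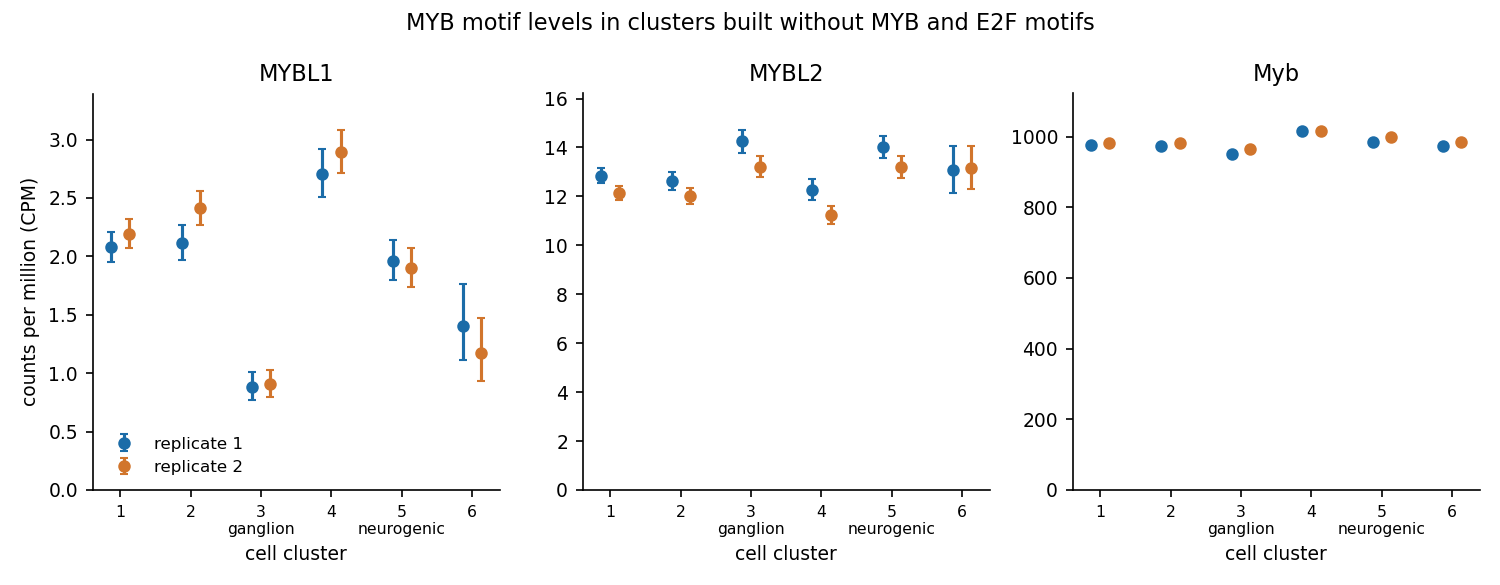
Counts per 1000000 motif counts (CPM) (vertical axis, from 0) of MYBL1, MYBL2 and Myb in the 6 clusters (horizontal axis) built without MYB and E2F motifs, with replicate 1 and replicate 2 as separate points. Bars are exact 95% Poisson intervals with counts taken in pairs. MYBL1 lies at 0.883 and 0.907 in the ganglion cell-like cluster and at 2.71 and 2.90 in cluster 4, whereas Myb lies between 952 and 1016 in every cluster.

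The spread between clusters was also described across libraries. The highest and lowest cluster for a motif were picked in 1 library, and the difference in log2 share was read in the other. The clusters had been built on both libraries together, and the MYBL1 pattern of both was known when the set was chosen, so these values give no independent support. For MYBL1 either library picked cluster 4 over cluster 3, and the difference was 1.68 read in replicate 2 and 1.62 read in replicate 1. The mean was 1.65 ± 0.043 (SD over the 2 directions), or 3.13-fold, the largest of the 579 motifs. The median over all motifs was 0.113. For MYBL2 either library picked cluster 3 over cluster 4, the reverse of MYBL1, at 0.22 ± 0.012 or 1.17-fold, at rank 31. For Myb the pair was cluster 4 over cluster 3, as for MYBL1, at 0.085 ± 0.013, at rank 411. For E2F1 it was cluster 4 over cluster 5, at 0.24 ± 0.084 and rank 25.

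The levels of MYBL2 ran the other way in clusters 3 and 4. It had 14.3 and 13.2 CPM in the ganglion cell-like cluster, 14.0 and 13.2 in the neurogenic bHLH-like cluster and 12.3 and 11.2 in cluster 4. The other clusters lay between 12.0 and 13.2. Differences were tested with edgeR's quasi-likelihood F test on counts summed per library and cluster, with the library as a block and Benjamini-Hochberg adjustment over the 579 motifs. The threshold was an adjusted p of 0.05. MYBL2 was higher in the ganglion cell-like cluster (log2 fold 0.12, SE 0.024, adjusted p = 0.00019, edgeR), where 75.8% of all motifs passed the test in either direction and 35.2% were higher. With so many motifs called, a call by itself sets no motif apart. By size, MYBL2 had rank 19 of the 579 folds there. That call was lost without the library block (adjusted p = 0.0721) and with cells thinned to 300000 counts (log2 fold 0.059, adjusted p = 0.27).

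In the neurogenic bHLH-like cluster MYBL2 was higher as well (log2 fold 0.10, adjusted p = 0.00175, edgeR), at rank 21 of the 579 folds. There 66.7% of motifs were called, 27.3% as higher. In cluster 4 MYBL2 was lower (log2 fold −0.16, adjusted p = 1.17e-05), rank 571 of 579, where 75.8% were called and 44.4% were lower. This call held without the block. In cluster 2 MYBL2 was lower too (log2 fold −0.067, adjusted p = 0.0121), with 83.2% of motifs called. In cluster 1 it was lower (log2 fold −0.053, adjusted p = 0.0466), with 58.9% called, but neither without TMM factors nor by DESeq2. In cluster 6, where 86.9% of motifs were called, it did not pass (0.056, adjusted p = 0.174). Without the library block the calls in clusters 1, 2 and 5 were lost as well.

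Myb shifted by a few percent. It was lower in the ganglion cell-like cluster, with 952 and 964 CPM (log2 fold −0.039, SE 0.0045, adjusted p = 5.23e-07, edgeR), and with coarser clusters, at resolution 0.3, the log2 fold was −0.015 (adjusted p = 0.0204). It was higher in cluster 4, with 1016 in both libraries (log2 fold 0.047, adjusted p = 4.28e-08), where 31.4% of motifs were higher. Both calls held without the library block. The ranks of these folds, 454 and 95 of 579, put Myb among the common run of motifs. Myb was also lower in cluster 1 (−0.016, adjusted p = 0.00649), though not without TMM factors, and higher in cluster 5 (0.012, adjusted p = 0.0281); neither call held without the block. In clusters 2 and 6 it did not pass (adjusted p = 0.229 and 0.676).

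The E2F motifs did not move as 1 block. In the ganglion cell-like cluster 7 of 8 were lower and none was higher, against 40.6% of all motifs lower. The exception was E2F2 (−0.0065, adjusted p = 0.756), and the median fold of the 8 was −0.032 against −0.0043 for all motifs. E2F1, the classical activator of S phase genes, had a log2 fold of −0.090 there (adjusted p = 0.00749). The atypical repressors E2F7 and E2F8 had −0.068 and −0.071. Without the library block only E2F7 of the 8 was called lower, where 19.3% of all motifs were.

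In cluster 4, 3 E2F motifs were higher and 5 lower. E2F1 had 0.16 (adjusted p = 2.55e-05), E2F7 0.050 and E2F8 0.047. Myb was higher there as well. E2F4 and E2F6, repressive members, fell by 0.051 and 0.048, and their partner TFDP1 by 0.035. Without TMM factors cluster 4 had 3 E2F motifs higher and 4 lower, and its split over all motifs was 233 higher (40.2%) and 206 lower (35.6%), against 182 higher and 257 lower with TMM.

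Cluster 6 showed the opposite split. E2F4 and E2F6 were higher by 0.12 each, and TFDP1 by 0.098, while E2F2, E2F7 and E2F8 were lower, for 3 higher and 3 lower of 8 against 47.5% and 39.4% of all motifs. The majority over all motifs turned with the scaling, from 275 higher and 228 lower with TMM to 240 (41.5%) and 256 (44.2%) without TMM factors, where 3 E2F motifs were higher and 4 lower. By DESeq2 it was 234 (40.4%) and 248 (42.8%), with 3 E2F motifs higher and 5 lower. All 14 GC-rich promoter motifs were higher in that cluster, with a mean log2 fold of 0.093, and both CCAAT motifs were too. The part of that GC-rich signal in the E2F values was not tested. Cluster 1 had 4 E2F motifs higher and none lower, against 20.2% and 38.7% of all motifs, and its split over all motifs was 117 higher and 224 lower, or 179 and 177 without TMM factors. Cluster 2 had 3 higher and 3 lower, against 41.3% and 42%. Cluster 5 had 1 higher, E2F2 at 0.054, and 4 lower, with E2F1 at −0.12, against 39.4% of all motifs lower. Without the library block 1 E2F motif was higher and 3 were lower in cluster 2, against 25.6% and 23.7% of all motifs. In cluster 4 none was higher and 3 were lower in that fit, against 15.9% and 23% of all motifs. In cluster 6 it called 3 higher and 1 lower, against 32.5% and 24.9%, and in clusters 1 and 5 none of the 8, with 13.5% and 21.6% of all motifs called. The CCAAT motifs NFYA and NFYB were both lower in clusters 3 and 4, by at most 0.024, against 40.6% and 44.4% of all motifs lower. NFYB was also lower in clusters 1 and 2 (log2 fold −0.015 and −0.027), against 38.7% and 42% of all motifs. NFYA did not pass there.

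Depth ran alongside the clusters, so it was looked at on its own. In tertiles of the cells by total counts, from shallow to deep, MYBL1 had 1.73, 1.67 and 2.22 CPM in replicate 1 and 1.95, 1.77 and 2.36 in replicate 2. The log2 ratio of the deepest over the shallowest tertile was 0.32 ± 0.062 for MYBL1, −0.064 ± 0.0061 for MYBL2 and 0.020 ± 0.012 for Myb. The deepest tertile held 73 and 92 of the 114 and 157 cells of cluster 4, and 26 and 27 of the 145 and 161 ganglion cell-like cells.

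The clusters differed within each tertile too. In the shallowest tertile MYBL1 had 3.19 and 2.45 CPM in cluster 4, with 13 and 41 cells, and 0.938 and 0.934 in the ganglion cell-like cluster. In the middle tertile it had 2.39 and 3.10 in cluster 4 and 0.841 and 0.860 in the ganglion cell-like cluster. In the deepest tertile it had 2.77 and 2.91 in cluster 4 and 0.929 and 0.988 in the ganglion cell-like cluster. The ganglion cell-like level was thus nearly flat across depth. Cluster 6 was not: MYBL1 stood at 0.843 and 0.911 in its shallow cells and at 1.85 and 1.27 in its middle cells, with only 1 cell of the cluster in the deepest tertile.

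**Figure D3:**
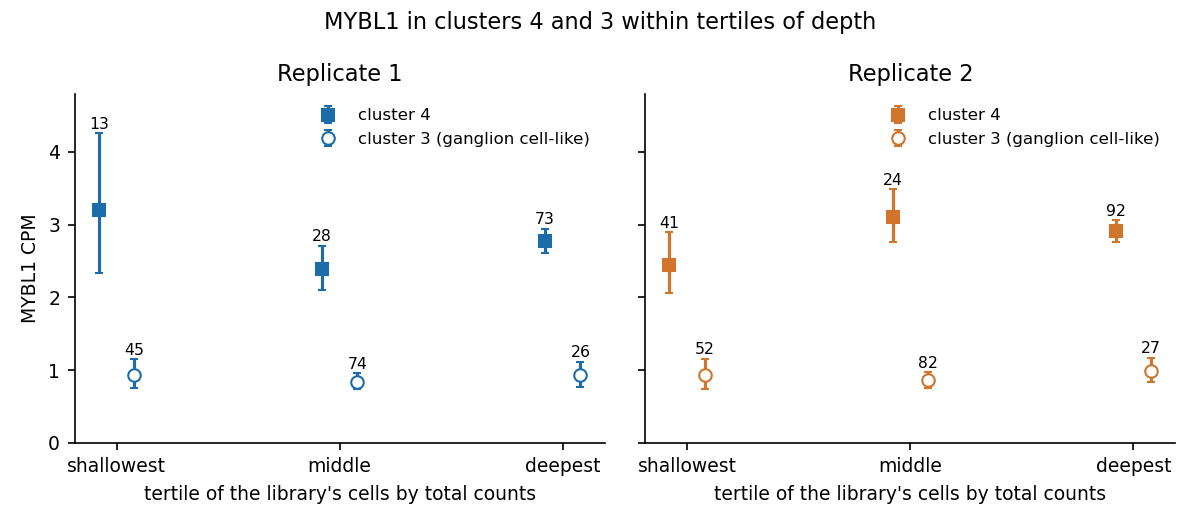
MYBL1 CPM (vertical axis, from 0) in cluster 4 (filled squares) and in the ganglion cell-like cluster 3 (open circles) within tertiles of a library's cells by total counts (horizontal axis). Bars are exact 95% Poisson intervals on single counts and numbers are cells; cluster 4 lies above cluster 3 in each tertile of both libraries.

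MYBL2 differed less evenly across depth. In the deepest tertile it had 14.3 and 13.3 CPM in the ganglion cell-like cluster and 12.0 and 11.2 in cluster 4. In the shallowest tertile it had 13.9 and 13.5 in the ganglion cell-like cluster and 13.9 and 12.3 in cluster 4, within each other's Poisson intervals in replicate 1. Myb had the higher level in cluster 4, against the ganglion cell-like cluster, in every tertile, by the widest margin in the middle tertile of replicate 1, with 1032 and 956 CPM.

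Cells were also ranked within a library by the mean log2 share of other motif lists, a description added after the clusters were seen. From the lowest to the highest tertile by the 4 TEAD motifs, whose factors act with YAP in dividing progenitors, MYBL1 had 1.42, 2.14 and 2.24 CPM in replicate 1 and 1.35, 2.34 and 2.50 in replicate 2. The log2 ratio of the top over the bottom tertile was 0.77 ± 0.16. For 8 progenitor SOX motifs it was 0.73 ± 0.15. By the 3 POU class 4 motifs MYBL1 had 2.09, 2.22 and 1.54 in replicate 1 and 2.27, 2.34 and 1.64 in replicate 2, so that the top tertile alone was low, with a ratio of −0.45 ± 0.019. The neurogenic bHLH score gave −0.23 ± 0.022 and the GC-rich promoter score −0.27 ± 0.0050. By the 3 photoreceptor CRX and OTX motifs the ratio was −0.064 ± 0.086 for MYBL1, within its spread of 0, beside the fold of −0.55 in the cluster that Crx led, and 0.060 ± 0.048 for MYBL2. Median totals differed between the tertiles in the same direction for TEAD and for progenitor SOX. For TEAD they were 3863261 and 3713164 counts in the top tertile and 3191229 and 3264916 in the bottom tertile. For progenitor SOX they were 4107687 and 3868648 in the top tertile and 3110805 and 3166742 in the bottom tertile. The part of depth in these ratios was not tested.

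Cells were ranked in the same way by cell cycle motifs. For MYBL1 the top over bottom ratio was 0.12 ± 0.15 by E2F1, which crosses 0 within its spread, 0.12 ± 0.041 by the other 7 E2F motifs, 0.34 ± 0.021 by E2F7 and E2F8 alone, and 0.0050 ± 0.081 by the CCAAT motifs. By the share of Myb it was 0.45 ± 0.17, and by that of MYBL2 −0.21 ± 0.082. MYBL2 went the other way from MYBL1 for TEAD (−0.15 ± 0.0095), progenitor SOX (−0.12 ± 0.0060), POU class 4 (0.068 ± 0.0098) and neurogenic bHLH scores (0.086 in both libraries). The mean ratios of Myb stayed between −0.021 and 0.026 for the 11 scores used. How far the motifs of a score share peaks with a member was not tested.

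**Figure D4:**
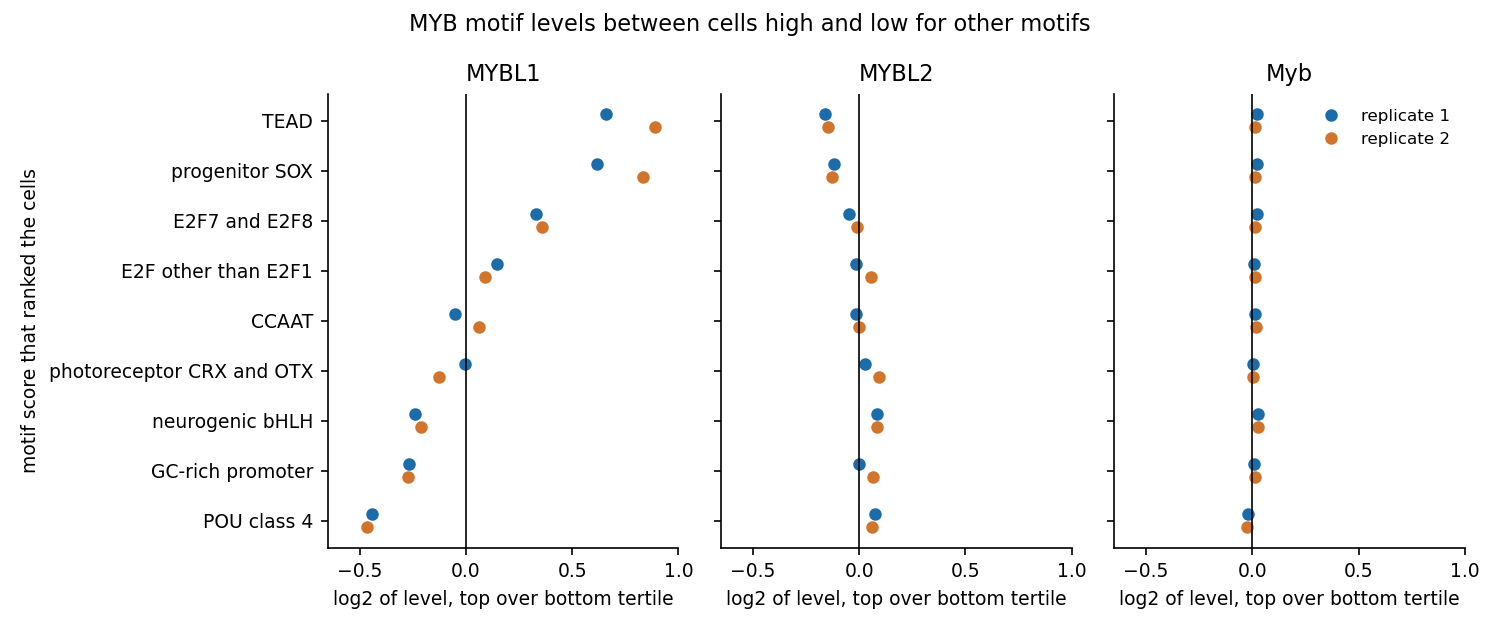
Log2 of the level in the top tertile of cells over the bottom tertile (horizontal axis) for MYBL1, MYBL2 and Myb, with cells ranked by the motif score on the vertical axis and replicates as separate points. MYBL1 runs from 0.77 for TEAD to −0.45 for POU class 4 (means of 2 libraries). The MYBL2 means have the other sign over a narrower range, except for E2F other than E2F1 (0.12 for MYBL1, 0.020 for MYBL2). Myb stays near 0.

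In a finer division, resolution 2.0, the same 568 motifs gave 19 cell groups. Across them MYBL1 ranged from 0.823 to 2.95 CPM with a median of 1.96 in replicate 1, and from 0.850 to 3.36 with a median of 2.10 in replicate 2. MYBL2 ranged from 10.6 to 15.8 and from 10.6 to 13.6, and Myb from 935 to 1024 and from 949 to 1023. The motifs most like MYBL1 in log2 share across the 19 groups were EN2 (Pearson r 0.88 and 0.84 in the 2 libraries), TEAD2 (0.88 and 0.80), SCRT1 (0.89 and 0.74), Rarg (0.82 and 0.79) and NR1H4 (0.81 and 0.75). MYBL1 had an r of −0.63 and −0.72 with MYBL2, of 0.64 and 0.39 with Myb, of 0.46 and 0.53 with E2F1, and of −0.77 and −0.62 with POU4F1. E2F8 had 0.76 and 0.48, and NFYA −0.06 and −0.14. The 19 points of a library share its cells, totals and base composition, and the groups were formed from these other motifs, so the correlations are a description with no p.

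**Figure D5:**
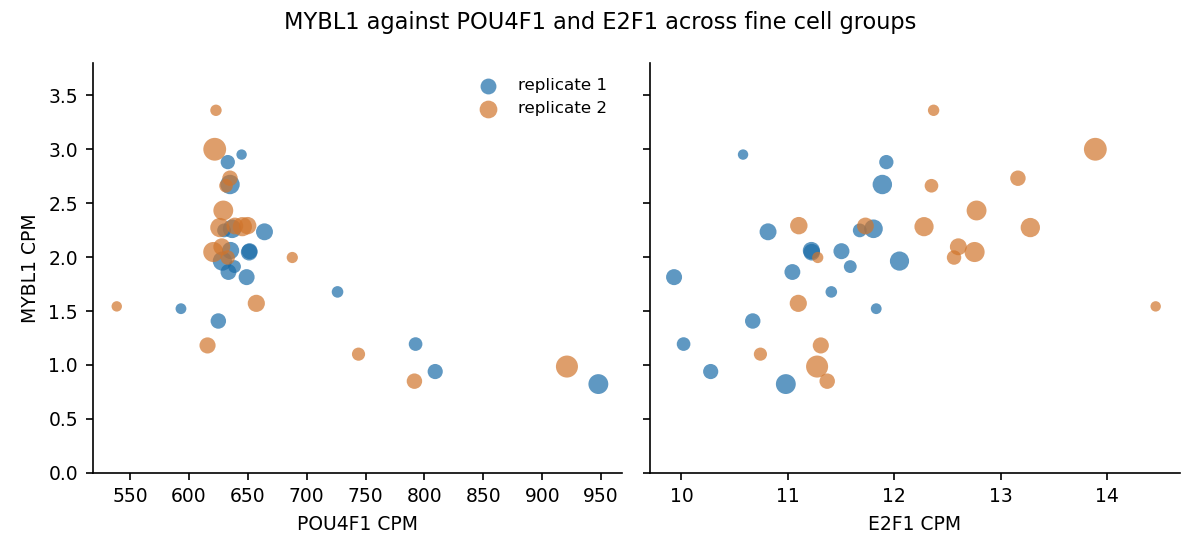
MYBL1 CPM (vertical axis, from 0) against POU4F1 (left) and E2F1 (right) CPM in 19 fine cell groups of each library, with point area growing with the number of cells. Groups with high POU4F1 have low MYBL1, down to 0.823 and 0.850.

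The motifs most like MYBL2 were NHLH1 (0.67 and 0.78), CUX2, TFCP2, CUX1 and IRF3 (0.71 and 0.52). Those most like Myb were Nr5a2 (0.83 and 0.79), NR1A4::RXRA, NR2F1, HNF4G and NR4A2::RXRA, all nuclear receptor motifs. Thus none of the 3 members was among the 5 motifs most like either of the others, and no E2F motif was among the 15.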

How the data were processed

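The authors deposited, per library, a raw count matrix of 579 motifs by barcode, written by software version 1.1.0 per the file headers. Per the submitters' processing notes the tool was Cell Ranger and the build mm10. How peaks and motifs were found is not given in the sources used here. Members, lists and tests were chosen with earlier results of these data known. Kept cells had at least 300000 counts and exceeded the same barcode's total in the other library; no doublet caller was run. Clustering left out MYB and E2F motifs (11), used log2(counts per 10000 + 1) with the log10 total regressed out, 15 principal components, 20 neighbours and Leiden resolution 0.5 (scanpy 1.11.5, igraph 0.11.9). A cluster took a class name if at least 3 of its 10 leading motifs, the first included, were in that class's list, a rule set after a first look. Sums per library and cluster (at least 20 cells each) were tested with edgeR 4.0.16 (R 4.3.3): quasi-likelihood F test, TMM, library block, 5 residual degrees of freedom. Its trended dispersion was floored at 0.00011, because its deviance went wrong below 0.0001. Scripts were tested on simulated data. The library block pairs the clusters because every cluster was cut from the same 2 libraries. The 3 members, the E2F and CCAAT lists and the 5 motifs most like each member were named by rule. Alternatives changed the cell filter, depth, resolution, clustering motifs, scaling, tool (DESeq2 1.42.0), block and replicates.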

Additional observations from a re-analysis of the deposited data

Results flagged for a closer look

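The barcodes left out of the kept cells, 1532 in replicate 1 and 1982 in replicate 2, also held counts of the 3 motifs, above the limit that a count of 0 allows. They had 315 MYBL1 counts over both libraries, or 2.04 and 1.84 counts per 1000000 motif counts (CPM), against 1.97 and 2.11 in kept cells. They had 2003 MYBL2 counts, or 13.0 and 11.7 CPM, against 13.1 and 12.3 in kept cells. They had 161048 Myb counts, or 972 and 980 CPM, against 979 and 988 in kept cells. Of the barcodes left out, 925 in replicate 1 and 872 in replicate 2 were the smaller copies of barcodes kept in the other library. What these copies and the other barcodes are was not tested.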

How the results depend on the processing

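The member folds in the ganglion cell-like cluster and the depth ratios kept their sign under the alternatives run for them. So did the high against low differences read across libraries. Levels, CVs and high against low differences within 1 library cannot be negative, so their sign shows nothing. The majority of calls over all motifs turned in clusters 1, 4 and 6 without TMM factors and in cluster 6 also by DESeq2. It turned in clusters 2 and 5 without the library block. The log2 fold of Myb in cluster 6, 0.0020, became −0.0087 without TMM factors and −0.0078 by DESeq2, called in none of these fits. Without the library block, that is with no replicate block, 196 motifs differed in the ganglion cell-like cluster in place of 439; the 9 other alternatives run gave 314 to 452. The high against low cluster difference of MYBL1, 1.65, became 1.12 at resolution 0.3, 1.73 at resolution 1.0 and 1.81 with thinned cells. That of MYBL2, 0.224, became 0.205 at a minimum of 1000000 counts, 0.248 without the deepest 5% of cells, 0.205 at resolution 1.0 and 0.198 with thinned cells. That of Myb, 0.0852, became 0.0570 at resolution 0.3 and 0.117 at resolution 1.0. With 1 library left out the clusters are picked and read in the same library, which is another measure than the main one; it gave 1.61 to 1.71 for MYBL1, 0.219 to 0.294 for MYBL2 and 0.0859 to 0.116 for Myb. With shared barcodes left out the levels in CPM were 1.62, 14.3 and 976 for MYBL1, MYBL2 and Myb, and with a total without GC-rich promoter motifs 2.21, 13.8 and 1067. The excess CV was 84.1%, 32.5% and 4.61% with shared barcodes left out, 56.3%, 19.6% and 3.36% without the deepest cells, 65.1%, 26.1% and 3.35% with thinned cells, and 40.8%, 13.0% and 2.69% with counts taken in pairs. For MYBL2, the log2 ratio of deepest over shallowest cells became −0.114 with 5 depth classes and −0.160 with thinned cells. The causes were not tested. The log2 fold of MYBL1 in the ganglion cell-like cluster was −0.53 at resolution 0.3, −0.99 at resolution 1.0, and −1.34 and −1.15 in a single library. Clusters without shared barcodes could not be made, with 18 and 126 cells left. With a mean of 7.33 and 7.70 MYBL1 counts per cell, depth limits this motif to sums over many cells.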
